A study of Homo sapiens with 60 samples.

Results

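Cultured human astrocytoma cells given a medium dose of Scutellaria root extract were compared with cells given the solvent alone. SW1783, an established human astrocytoma line, had received for 24 h either 82 µg/mL of a water extract of Scutellariae Radix or the vehicle, labelled 0.1% dimethyl sulfoxide (DMSO). Each group had 3 libraries, and these 6 of the 60 libraries of the series were taken by their labelled treatment and library code, without use of any measured value. The low (16.4 µg/mL) and high (410 µg/mL) doses of the same extract, again 3 libraries each, place the medium dose in its series. All groups were grown in Leibovitz's L-15 medium with 10% fetal bovine serum. The composition of the extract was not analysed here.

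Several features of the design limit every value that follows. The series' design text gives the vehicle as 2% DMSO, and no source used here states how much DMSO the extracts brought along, so a solvent difference and the treatment cannot be told apart. Library codes of the vehicle belong to a set that no extract shares, whereas Scutellaria and Pinellia codes start with the same number, 3. A difference between code sets therefore cannot be told apart from treatment against vehicle, while comparisons between Scutellaria doses lie within 1 code set. Nothing says that the 3 replicates were separate cultures. The p-values then measure only the spread between libraries within groups, pooled over all 60 libraries of the series, which may be technical. The low, medium and high doses were all set against the same 3 vehicle libraries.

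The 6 libraries held 20.8 to 25.4 M counts. All 10 mesenchymal markers, among them VIM, CD44 and COL1A1, were above 1 count per M counts (CPM). Of 10 astrocyte markers, SLC1A3, GJA1, SOX9 and ALDOC were above 1 CPM in all 6 libraries, FABP7 was at 0, and GFAP, AQP4 and S100B were too low to be tested. Summed astrocyte markers came to 339 to 343 CPM at the medium dose and 357 to 364 CPM in vehicle. Most of this sum was GJA1, at 234 to 238 CPM at the medium dose and 244 to 252 CPM in vehicle. Of the 10 astrocyte markers only 1, SLC1A3, was called lower at the medium dose and 0 were called higher. Of 10 leukocyte markers, PTPRC, CD68 and CSF1R were above 1 CPM in all 6 libraries, and CD3E and TYROBP were at 0. Mitochondrial ribosomal RNA took 1.01 to 1.06% of counts at the medium dose and 0.918 to 0.995% in vehicle, and its part in the results was not tested. The log2 level also had a trend over exon length, with slopes per 10-fold length of -0.024 to -0.0082 at the medium dose and 0.0068 to 0.1088 in vehicle, against the mean of all libraries, and taking it out was 1 of the alternative settings.

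Scutellaria root is known for flavones such as baicalin, baicalein and wogonin. A pair of cell programmes recurs in what follows. ATF4 is a transcription factor made when phosphorylation of the initiation factor eIF2α slows general translation, as under amino acid shortage, haem shortage or misfolded protein. It switches on genes for amino acid synthesis and import, for tRNA charging and for feedback on the pathway itself, which together are called the integrated stress response. The aryl hydrocarbon receptor (AhR) is a ligand-activated factor that pairs with ARNT and induces drug-metabolising enzymes such as CYP1B1, together with its own inhibitors AHRR and TIPARP. Plant flavonoids can act on it as agonists or antagonists.

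Of 17569 genes tested, 1484 (8.45%) differed between the medium dose and vehicle at an adjusted p under 0.05 by edgeR's quasi-likelihood test. Of these, 654 (3.72% of genes tested) rose and 830 (4.72%) fell. With the trend over exon length taken out, 778 rose and 658 fell, and with no filter on low counts 732 rose and 635 fell. The 1484 calls became 854 without replicate 1 of the vehicle, 900 without replicate 3 of the medium dose and 831 (4.73%) against the low dose of Pinellia. Most changes were small: the median size among called genes was 0.20 on the log2 scale, and 1334 of them were under 0.5. Beyond 1 on the log2 scale, 28 genes rose and 7 fell. The median log2 fold change over all genes tested was 0.00, beside which the list medians below are to be read. The 3 libraries of one group lay wholly above or below those of the other in 26.6% of genes. Of the 12 largest rises among called, non-overlapping genes with a mean of at least 1 log2 CPM, 9 were ATF4 targets, and 3 of the 12 largest falls were AhR targets.

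**Figure D1:**
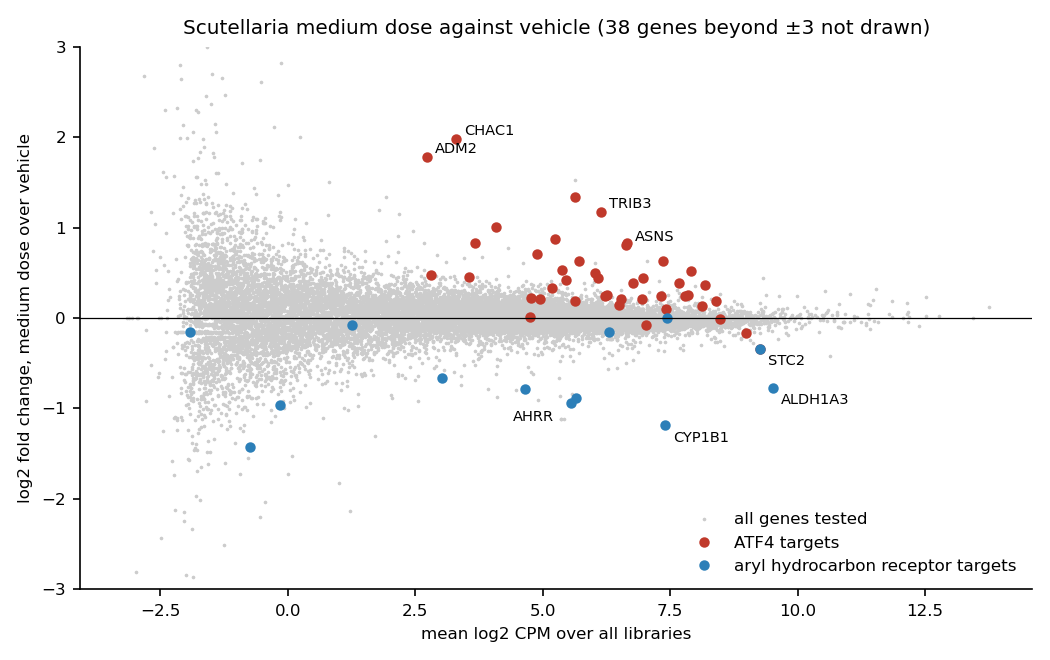
Each point is a gene, with its mean log2 CPM over all 60 libraries on the x axis and its log2 fold change of the medium dose over vehicle on the y axis. ATF4 targets lie mostly above 0 and AhR targets mostly below; 38 genes beyond 3 in either direction are not drawn.

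Of the 44 gene lists, that of ATF4 targets had the most rises. Of 45 listed genes, 43 passed the filter on low counts, and of these 36 rose, 2 fell and 5 did not pass the test, with a median log2 fold change of 0.38. CHAC1, which breaks down glutathione, had 14.75, 13.6 and 14.3 CPM at the medium dose, against 4.06, 2.98 and 3.85 CPM in vehicle. The groups lay far apart, and the log2 fold change was 1.98 ± 0.10 (SE, adjusted p 2.5e-22). TRIB3, a pseudokinase that feeds back on ATF4, had 42.5, 40.8 and 44.6 CPM at the medium dose and 18.2, 18.97 and 19.5 CPM in vehicle. It rose by 1.17 ± 0.05 (adjusted p 3.6e-25), again with every treated library above every vehicle library. In the following, fold changes are on the log2 scale, ± is their SE and all p are adjusted over all genes tested.

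The promoters of CHAC1 and ASNS are shown because both genes rose and hold the letters of the composite site that ATF4 binds with C/EBP partners. RefSeq promoters (GRCh38.p14, 250 bases before to 50 after the start) were searched for TGATGNAA on both strands, and the match is in capitals. The CHAC1 window lies on the plus strand at chr15:40953221-40953520 and that of ASNS on the minus strand at chr7:97872359-97872658.
CHAC1: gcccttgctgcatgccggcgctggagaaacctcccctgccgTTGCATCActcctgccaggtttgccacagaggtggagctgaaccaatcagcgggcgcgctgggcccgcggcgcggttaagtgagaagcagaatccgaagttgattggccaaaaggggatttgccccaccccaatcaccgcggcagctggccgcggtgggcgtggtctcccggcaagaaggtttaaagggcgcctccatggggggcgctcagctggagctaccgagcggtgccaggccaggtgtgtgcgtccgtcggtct
ASNS: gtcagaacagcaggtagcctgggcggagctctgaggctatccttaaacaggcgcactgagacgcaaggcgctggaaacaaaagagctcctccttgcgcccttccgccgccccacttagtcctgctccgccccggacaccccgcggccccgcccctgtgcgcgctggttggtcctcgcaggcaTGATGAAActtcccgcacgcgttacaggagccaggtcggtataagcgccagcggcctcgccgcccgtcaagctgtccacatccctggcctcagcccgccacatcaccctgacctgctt
The match began 209 bases before the start in CHAC1, read as the reverse complement, and 68 bases before it in ASNS. Of 36 ATF4 targets that rose, 29 had a promoter in the table and 6 of these (20.7%) held the letters, as did 3.6% of all 35116 promoters. Only the first listed window of each of the 29 was used, whereas all promoters count every window. Members that did not rise were not searched, so a link of the letters to the rise was not tested. A match is a description of the window and not a measured binding site.

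In amino acid synthesis, ASNS, which makes asparagine, had 88.7, 83.9 and 85.5 CPM at the medium dose, against 48.9, 49.6 and 49.1 CPM in vehicle, and rose by 0.81 ± 0.03 (adjusted p 5.1e-26). PSAT1 and PHGDH of the serine pathway rose by 0.83 ± 0.04 and 0.53 ± 0.05, and CBS and CTH of transsulfuration by 0.83 ± 0.08 and 0.45 ± 0.08. The mitochondrial one-carbon enzymes ALDH1L2 and MTHFD2 rose by 0.71 ± 0.07 and 0.44 ± 0.04. Among amino acid carriers, SLC7A5 of leucine import had 233, 230.1 and 237 CPM at the medium dose and 166, 160.5 and 164 CPM in vehicle, without overlap, and rose by 0.52 ± 0.04. The glycine importer SLC6A9 rose by 0.42 ± 0.04 and the cystine importer SLC7A11 by 0.39 ± 0.04. The tRNA-charging enzymes GARS1 and WARS1 rose by 0.37 ± 0.02 and 0.14 ± 0.03.

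The mRNA of ATF4 itself had 159.8, 153 and 157 CPM at the medium dose and 98.4, 103 and 103 CPM in vehicle, a rise of 0.63 ± 0.04 (adjusted p 1.4e-20). CEBPG, a binding partner, rose by 0.50 ± 0.04. DDIT3, the death-linked factor CHOP, had 35.9, 34.5 and 31.2 CPM at the medium dose against 24.3, 25.9 and 24.2 CPM in vehicle and rose by 0.45 ± 0.07 (adjusted p 8.4e-06). These groups did not overlap. GDF15, a secreted stress hormone, had 9.37, 9.24 and 10.95 CPM at the medium dose and 3.36, 4.18 and 4.09 CPM in vehicle, and rose by 1.34 ± 0.10. ADM2, a peptide hormone of the adrenomedullin family, rose by 1.79 ± 0.14, the stress protein NUPR1 by 1.00 ± 0.09 and SESN2, a leucine sensor that restrains mTORC1, by 0.87 ± 0.07. CEBPB, another partner, rose by 0.63 ± 0.16 (adjusted p 0.0059) with more spread, at 48.6, 60.04 and 45.05 CPM at the medium dose and 27.6, 33.3 and 38.5 CPM in vehicle.

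A few members did not follow. STC2, a secreted glycoprotein that is also in the AhR list, fell to 390.5, 411 and 405 CPM at the medium dose, against 518.5, 491 and 515 CPM in vehicle (-0.34 ± 0.03, adjusted p 4.9e-13). SLC38A2, a carrier of small neutral amino acids, fell by 0.17 ± 0.04 (adjusted p 0.0017). ATF5, ATF3, PPP1R15A, VEGFA and ALDH18A1 did not pass the test, with log2 fold changes of 0.01, 0.48, 0.14, -0.01 and -0.08. PPP1R15A, the phosphatase subunit that ends the eIF2α block, had 46.1, 48.3 and 52.9 CPM at the medium dose and 46.35, 42.6 and 44.7 CPM in vehicle, which overlap. SLC7A3 and FGF21 were too low to be tested.

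**Figure D2:**
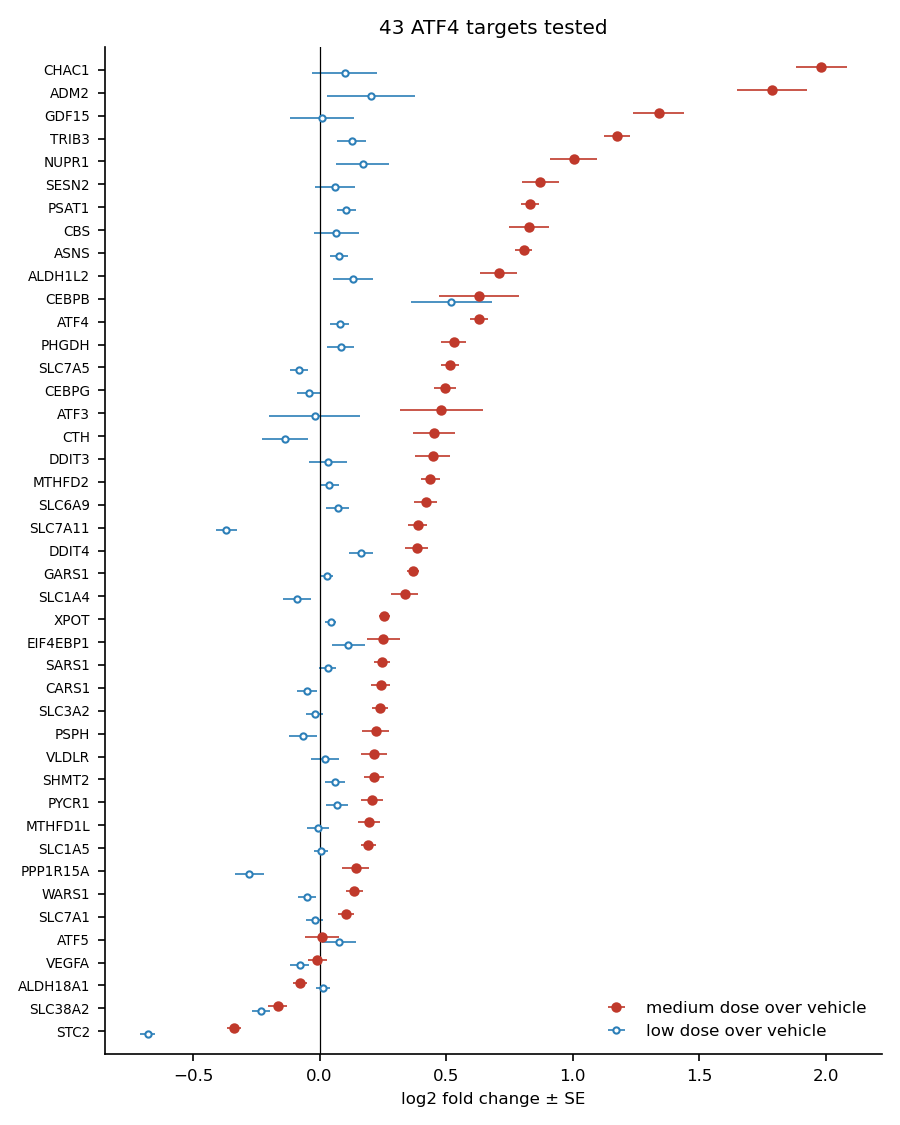
Log2 fold change with its SE for the 43 ATF4 targets tested, at the medium dose and the low dose, each over the same 3 vehicle libraries. Medium-dose values run from -0.34 for STC2 to 1.98 for CHAC1, and the median is 0.38 at the medium dose and 0.03 at the low dose.

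ATF4 targets separated the medium from the low dose. Between these doses 289 genes (1.64%) differed, 155 higher (0.882%) and 134 lower (0.763%) at the medium dose. The 289 became 130 in a fit of these 2 groups alone, 169 without replicate 3 of the medium dose and 188 without replicate 2 of the low dose. Of the 43 ATF4 targets, 35 were higher at the medium dose and 0 lower, with a median log2 difference of 0.35. CHAC1 was 1.88 higher than at the low dose (adjusted p 1.8e-21), where its libraries had 3.665, 4.00 and 3.87 CPM. For ASNS, low-dose libraries had 51.9, 52.8 and 51.04 CPM, and the medium dose was 0.73 higher (adjusted p 1e-23). Low-dose CHAC1 overlapped with vehicle, and low-dose ASNS lay above vehicle in all libraries but was not called (0.08, adjusted p 0.32). At the low dose against vehicle 477 genes (2.72%) were called, among them 1 ATF4 target that rose and 4 that fell. SLC7A11 was among those 4, at 99.5, 113 and 107 CPM in low-dose libraries, 0.37 below vehicle, so that the step to the medium dose was 0.76 ± 0.04. PPP1R15A was 0.28 below vehicle at the low dose (adjusted p 0.0015) and 0.42 higher at the medium than at the low dose (adjusted p 3.7e-07).

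The rise went on at the high dose. High against medium dose, 10068 genes (57.3%) were called, and 41 of the 43 ATF4 targets were higher at the high dose, beside 28.7% of all genes. TRIB3 reached 277, 273 and 279.7 CPM at the high dose and GDF15 186.5, 199.8 and 176 CPM. Ranked by mean level over the 20 groups of the series, with 1 the lowest, the medium dose stood at 17 for CHAC1 and 16 for ASNS and TRIB3, and vehicle at 4, 5 and 3. The count of rises was also 36 when the low dose of Pinellia (20 µg/mL), whose codes share the set of Scutellaria, replaced the vehicle, and with the trend over exon length taken out. It was 34 to 36 over 14 alternative settings.

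Of the 44 gene lists, that of AhR targets had the lowest median. Of 14 listed genes 13 were tested, and 8 fell, 0 rose and 5 did not pass the test, with a median log2 fold change of -0.77. CYP1B1, a cytochrome P450 that oxidises oestradiol and polycyclic hydrocarbons, had 70.9, 77.6 and 71.9 CPM at the medium dose, against 168, 168 and 166 CPM in vehicle. No library of one group came near those of the other, and the log2 fold change was -1.19 ± 0.04 (adjusted p 3.8e-30). CYP1B1 lies on the minus strand at chr2:38066973-38109902 (GRCh38, GENCODE 29). AHRR, the repressor that AhR induces against itself, had 24.6, 23.7 and 24.8 CPM at the medium dose and 45.5, 48.1 and 46.1 CPM in vehicle (-0.94 ± 0.05, adjusted p 2.5e-22). TIPARP, the ADP-ribosyltransferase that inactivates AhR, had 24.6, 24.5 and 24.01 CPM at the medium dose and 47.5, 43.7 and 43.9 CPM in vehicle (-0.88 ± 0.06, adjusted p 1.4e-18). Both feedback genes lay wholly below vehicle.

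The promoters of TIPARP and ALDH1A3 are printed because both genes fell and hold the core letters of the AhR response element. GCGTG was searched on both strands in the same RefSeq windows, and matches are in capitals. The TIPARP window lies on the plus strand at chr3:156674340-156674639 and that of ALDH1A3 on the plus strand at chr15:100879581-100879880.
TIPARP: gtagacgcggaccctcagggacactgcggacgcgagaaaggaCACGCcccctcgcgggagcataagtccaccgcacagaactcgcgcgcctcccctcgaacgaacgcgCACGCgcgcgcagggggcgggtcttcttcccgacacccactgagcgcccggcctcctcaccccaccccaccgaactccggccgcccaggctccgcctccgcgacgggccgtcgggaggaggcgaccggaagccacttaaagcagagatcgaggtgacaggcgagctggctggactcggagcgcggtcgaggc
ALDH1A3: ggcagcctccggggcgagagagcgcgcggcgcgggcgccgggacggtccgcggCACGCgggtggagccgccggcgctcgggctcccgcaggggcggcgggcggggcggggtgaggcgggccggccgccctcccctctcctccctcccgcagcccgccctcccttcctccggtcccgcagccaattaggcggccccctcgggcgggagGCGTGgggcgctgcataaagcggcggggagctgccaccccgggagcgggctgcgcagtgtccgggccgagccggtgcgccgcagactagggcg
In TIPARP the matches began 208 and 142 bases before the start, both as the reverse complement CACGC. In ALDH1A3 they began 197 and 43 bases before it, the nearer one as GCGTG. Of 8 AhR targets that fell, 7 had a promoter in the table and 5 of these (71.4%) held the letters, as did 36.5% of all promoters. Here too only the first listed window of each gene was used. Members that did not fall were not searched, so a link of the letters to the fall was not tested.

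ALDH1A3, which makes retinoic acid from retinal, had the smallest p among the AhR targets. Its levels were 381, 387 and 385 CPM at the medium dose, against 649, 659 and 656 CPM in vehicle, a fold change of -0.77 ± 0.02 (adjusted p 2.1e-34). SERPINB2, the plasminogen activator inhibitor PAI-2, had 14.1, 14.1 and 15.1 CPM at the medium dose against 24.7, 24.01 and 26.01 CPM in vehicle (-0.78 ± 0.06). The P450 CYP2S1 had 4.82, 4.56 and 5.28 CPM at the medium dose and 8.02, 8.44 and 6.75 CPM in vehicle (-0.67 ± 0.10, adjusted p 4.5e-06). None of these groups overlapped. NFE2L2, the gene of the NRF2 factor, fell by 0.15 ± 0.03. Levels of CYP1A1, the classic AhR reporter, were near the detection limit, with 0.395, 0.387 and 0.1985 CPM at the medium dose and 0.513, 0.852 and 0.523 CPM in vehicle. Its groups did not overlap, but the difference of -0.96 ± 0.36 had an adjusted p of 0.092; against the low dose of Pinellia the adjusted p was 0.029, and it was 0.083 to 0.42 over the other edgeR alternatives. NQO1, which NRF2 also drives, had 151, 150.4 and 157 CPM at the medium dose and 155, 153 and 149 CPM in vehicle (0.00 ± 0.03, adjusted p 0.97). ALDH3A1, UGT1A6 and EREG, all under 3 CPM, did not pass the test either, and UGT1A6 shares exons with the other UGT1A genes, so its counts are uncertain.

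The receptor itself was not among the called genes. AHR had 113, 115 and 111 CPM at the medium dose and 108, 105 and 107 CPM in vehicle (0.08 ± 0.04, adjusted p 0.25). Its partner ARNT was at 50.4, 52.6 and 49.5 CPM at the medium dose and 54.5, 52.4 and 50.7 CPM in vehicle (-0.05 ± 0.04, adjusted p 0.57). The median over the 7 genes for AhR, its partners and its chaperones was -0.03.

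At the low dose the AhR targets were already down. Against vehicle, 10 of the 13 fell at the low dose, beside 1.71% of all genes, with a median of -0.75. Between medium and low dose 3 were higher at the medium dose and 0 lower. CYP1B1 had 65.8, 67.8 and 72.7 CPM in low-dose libraries, and the difference of the medium dose from them did not pass the test (0.09 ± 0.04, adjusted p 0.36). AHRR, TIPARP and SERPINB2 differed from the low dose by 0.05, 0.00 and 0.00 and were not called. ALDH1A3 (0.14, adjusted p 1.1e-05), STC2 (0.34, adjusted p 1.2e-12) and NQO1 (0.25, adjusted p 7.7e-09) were the 3 that lay higher at the medium dose. TIPARP at the high dose had 45.99, 47.4 and 52.99 CPM, which is 1.00 ± 0.05 above the medium dose (adjusted p 3.1e-23). CYP1B1 was lower still there, at 50.3, 57.7 and 59.02 CPM, and AHRR stayed at 24.2, 24.8 and 23.3 CPM. High against medium dose, 6 of the 13 AhR targets were higher and 2 lower, beside 28.7% and 28.6% of all genes. Against vehicle, the high dose had 5 of the 13 higher and 6 lower, beside 30.3% and 28.5%, so the list was split there.

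Across the 20 groups of the series, the 3 Scutellaria doses had the 3 lowest mean levels of CYP1B1, AHRR, ALDH1A3, CYP2S1 and CYP1A1. Mean CYP1B1 was 73.5 CPM at the medium dose and 101 to 324 CPM in the groups without Scutellaria. With the low dose of Pinellia in place of the vehicle 9 AhR targets fell, and over the 14 alternative settings 8 to 9.

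**Figure D3:**
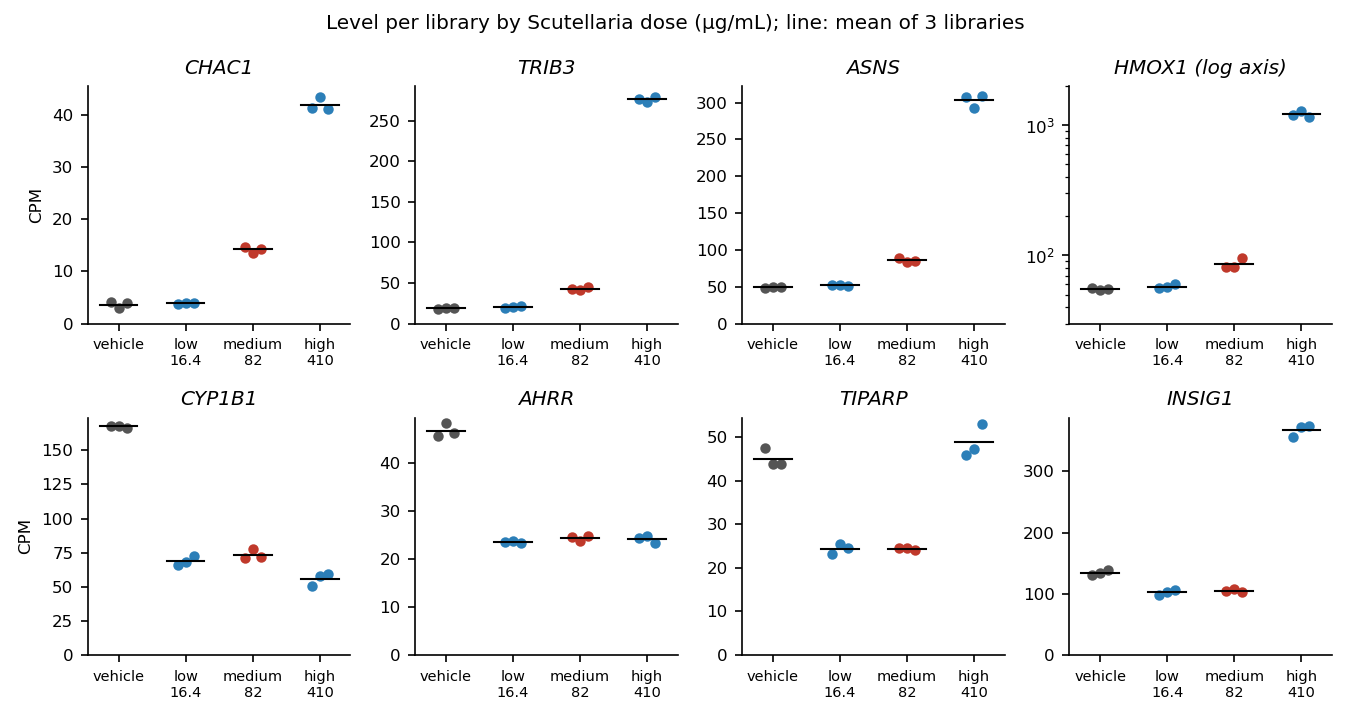
CPM per library (points) and mean of 3 libraries (line) for 8 genes in vehicle and at 3 doses of Scutellaria; the HMOX1 axis is logarithmic. CHAC1, TRIB3, ASNS and HMOX1 step up at 82 µg/mL, whereas CYP1B1, AHRR and TIPARP are already down at 16.4 µg/mL.

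NRF2 targets, which detoxify electrophiles and make glutathione, moved in part. Of 36 tested, 9 rose and 2 fell (30.6% called, beside 8.45% of all genes), with a median of 0.03. HMOX1, which opens the haem ring, had 81.4, 81.35 and 94.7 CPM at the medium dose, against 56.6, 54.1 and 55.2 CPM in vehicle (0.64 ± 0.06, adjusted p 1.3e-12), with no overlap. SQSTM1, an autophagy receptor, rose by 0.26 ± 0.03, FTH1, the ferritin heavy chain, by 0.29 ± 0.07 and GCLC, of the rate-limiting enzyme of glutathione synthesis, by 0.18 ± 0.04. SLC7A11 is in this list as well as in that of ATF4. Compared with the low dose 10 NRF2 targets were higher and 0 lower, beside 0.882% and 0.763% of all genes. The low dose itself had 6 NRF2 targets called below vehicle and 0 above, beside 1.71% and 1% of all genes. SLC7A11 and NQO1 were among the 6, with log2 fold changes of -0.37 and -0.25, so part of the step was a return towards vehicle. The 9 rises became 5 without replicate 1 of the vehicle, without replicate 3 of the medium dose or against the low dose of Pinellia, and FTH1 lost its call in the first and last of these. At the high dose HMOX1 reached 1196, 1288 and 1147 CPM, 3.82 above the medium dose.

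Of 30 genes of endoplasmic reticulum folding 4 rose and 2 fell (20.0% called, beside 8.45% of all genes), with a median of 0.00. HSPA5, the chaperone BiP, had 3548, 3432 and 3520 CPM at the medium dose against 3613, 3582 and 3613 CPM in vehicle (-0.04 ± 0.03, adjusted p 0.38). XBP1, a factor of the unfolded protein response, rose by 0.20 ± 0.05 and HERPUD1, of protein degradation, by 0.15 ± 0.04, while DNAJC3, an inhibitor of the kinase PERK, fell by 0.17 ± 0.04. Of 20 heat shock genes 1 rose, the small chaperone gene HSPB1, and 3 fell, HSPA8, DNAJA1 and HSPH1, by 0.11, 0.16 and 0.13 (again 20.0% called). With the trend over exon length taken out 3 heat shock genes rose and HSPH1 was not called. Of 34 p53 targets 8 rose and 2 fell (29.4% called), and GDF15 and SESN2 among the 8 are shared with the ATF4 list. Against the low dose of Pinellia 2 of the 30 folding genes rose and 0 fell, and XBP1, DNAJC3 and HSPB1 lost their calls. Without replicate 1 of the vehicle 5 p53 targets rose and 0 fell, and 1 heat shock gene fell. CDKN1A, the p53-driven cell cycle inhibitor, was at 21.6, 19.45 and 20.9 CPM at the medium dose and 23.4, 22.2 and 23.25 CPM in vehicle, and MDM2, which degrades p53, at 49.4, 49.2 and 46.2 CPM at the medium dose and 53.15, 52.4 and 51.01 CPM in vehicle. Neither passed the test (adjusted p 0.1 and 0.099).

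**Figure D4:**
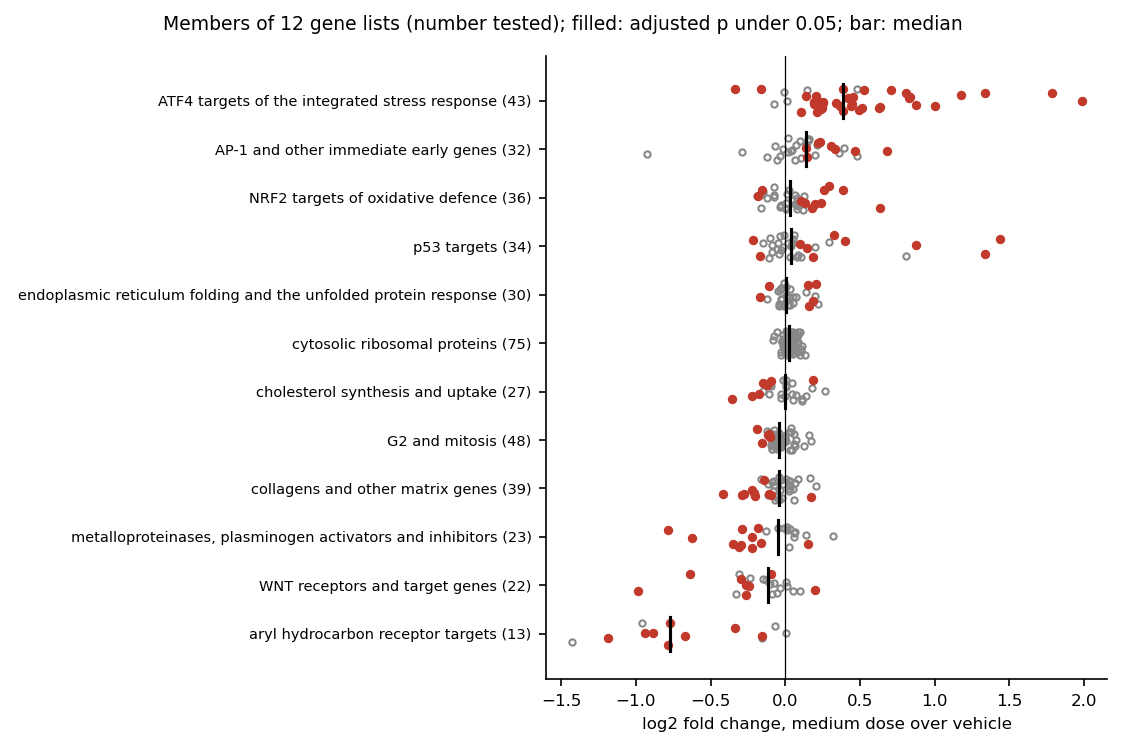
Log2 fold change of the medium dose over vehicle for each tested member of 12 gene lists, with called genes filled and the list median as a bar. The medians run from 0.38 for ATF4 targets to -0.77 for AhR targets, and the medians of other lists named in the text lie nearer 0.

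Genes for matrix, its proteases and several growth signals showed more falls than rises, most of them small. Of 39 matrix genes 9 fell and 1 rose (25.6% called, beside 8.45% of all genes), with a median of -0.04. Over the 14 alternative settings 6 to 11 of them fell and 0 to 2 rose. With the trend over exon length taken out 7 matrix genes fell and 1 rose, and against the low dose of Pinellia 7 fell and 0 rose. THBS1, a matrix protein that activates TGF-β, fell to 1301, 1328 and 1368 CPM at the medium dose, against 1795, 1759 and 1789 CPM in vehicle (-0.42 ± 0.04, adjusted p 4.8e-12). Its groups lay far apart. COL12A1, THBS2 and POSTN, a collagen and a pair of matricellular proteins, fell by 0.28, 0.22 and 0.20. COL1A1, of the main fibrillar collagen, was not called (-0.03 ± 0.03, adjusted p 0.65). Among 23 metalloproteinases, plasminogen activators and their inhibitors 10 fell and 1 rose (47.8% called), with a median of -0.05. Against the low dose of Pinellia 8 of the 23 fell and 0 rose. The collagenase MMP1 had 43.85, 44.6 and 44.1 CPM at the medium dose and 56.7, 52.97 and 54.5 CPM in vehicle (-0.31 ± 0.04), and the plasminogen activators PLAT and PLAU fell by 0.30 ± 0.03 and 0.29 ± 0.04.

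In the WNT pathway 7 of 22 genes fell and 1 rose (36.4% called, beside 8.45% of all genes), with a median of -0.12. The ligands WNT5A and WNT7B fell by 0.26 ± 0.03 and 0.30 ± 0.04, the receptor LGR4 by 0.24 and the factor TCF7 by 0.26. Of 27 TGF-β genes 7 fell and 4 rose (40.7% called), and 4 fell against the low dose of Pinellia. SMAD3, which carries the signal, had 106, 117.5 and 111 CPM at the medium dose and 135, 139 and 137 CPM in vehicle (-0.30 ± 0.03). ID1, a target of BMP signals, went the other way, with 323, 371 and 325 CPM at the medium dose and 243, 266 and 270.1 CPM in vehicle (0.38 ± 0.07, adjusted p 0.00024). Neither pair of groups overlapped, but ID1 was not called against the low dose of Pinellia.

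Of 14 growth factor receptors 5 fell and 1 rose (42.9% called, beside 8.45% of all genes). The receptor kinases PDGFRA and KIT fell by 0.39 and 0.38, and AXL rose by 0.12. Without replicate 3 of the medium dose 3 of the 14 fell. Among 12 glucocorticoid targets 5 fell and 1 rose. The secreted protein gene CRISPLD2 was at 58.7, 57.2 and 59.1 CPM at the medium dose against 90.9, 83.6 and 84.6 CPM in vehicle (-0.57 ± 0.04). The factor KLF9 fell by 0.34, and TSC22D3, known as GILZ, rose by 0.31. NR3C1, also among the 5 glucocorticoid genes that fell, did so by 0.15.

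ABCG2, an efflux pump that exports xenobiotics and 1 of the 12 largest falls, had 23.1, 22.7 and 22.7 CPM at the medium dose, against 42.85, 39.15 and 42.98 CPM in vehicle (-0.86 ± 0.05, adjusted p 4.1e-19). It already lay 0.70 below vehicle at the low dose, and the medium dose did not pass the test against the low dose (-0.17, adjusted p 0.12). By mean level the 3 Scutellaria doses were again the 3 lowest of the 20 groups. ABCB1, the P-glycoprotein, had 19.6, 19.2 and 16.99 CPM at the medium dose and 27.0, 27.8 and 26.1 CPM in vehicle (-0.54 ± 0.06). ABCC1, a pump for glutathione conjugates, fell by 0.18, while its relative ABCC3 rose by 0.20. Of 28 genes of conjugation and efflux 3 fell and 2 rose in all (17.9% called, beside 8.45% of all genes), and ABCC3 was not called without replicate 1 of the vehicle, without replicate 2 or 3 of the medium dose or against the low dose of Pinellia.

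Among the 12 largest falls, HAS3, a hyaluronan synthase, had 17.2, 17.6 and 16.5 CPM at the medium dose against 31.5, 33.1 and 31.8 CPM in vehicle (-0.91 ± 0.06). HS6ST3, which sulfates heparan chains, had 8.46, 10.1 and 11.35 CPM at the medium dose and 18.65, 18.3 and 17.8 CPM in vehicle (-0.87 ± 0.08). Both separated the groups widely. VIPR1, a receptor for vasoactive intestinal peptide, fell by 1.31 ± 0.20 at a mean of 1.13 CPM at the medium dose and 2.81 CPM in vehicle. KRTAP1-5, VIT, ST8SIA5, NPTX1 and TMEM132B, all under 4 CPM in every one of the 6 libraries, fell by 1.02, 1.00, 0.98, 0.91 and 0.89. KRTAP1-5 lost its call against the low dose of Pinellia and without replicate 3 of the vehicle.

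Of the 12 largest rises by the rule above, RAB39B, PCK2 and SLC22A15 are not in the ATF4 list. RAB39B, a small GTPase of vesicle traffic, had 4.71, 5.10 and 5.95 CPM at the medium dose and 2.61, 2.44 and 3.04 CPM in vehicle (0.97 ± 0.13). PCK2, the mitochondrial enzyme that makes phosphoenolpyruvate, had 20.2, 20.2 and 21.2 CPM at the medium dose against 12.1, 12.8 and 10.9 CPM in vehicle (0.77 ± 0.07). Both were also above the low dose, by 1.23 and 0.62 (adjusted p 2.4e-09 and 3.6e-09). The transporter gene SLC22A15 rose by 0.78 ± 0.22, with a mean of 2.00 CPM at the medium dose and 1.15 CPM in vehicle, and lost its call without replicate 1 or 3 of the vehicle and without replicate 1 or 2 of the medium dose.

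Of 32 immediate early genes 8 rose and 0 fell (25.0% called, beside 8.45% of all genes), with a median of 0.14. The zinc finger factor KLF6 had 78.3, 77.9 and 79.3 CPM at the medium dose against 65.04, 61.9 and 63.4 CPM in vehicle (0.31 ± 0.04), without overlap. KLF4, of the same family, rose by 0.46 ± 0.10 and JUN, an AP-1 subunit, by 0.23 ± 0.04, but FOS did not pass the test (0.04 ± 0.18). Without replicate 3 of the medium dose 4 of the 32 rose.

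Of 37 NF-κB genes 3 rose and 2 fell (13.5% called, beside 8.45% of all genes), and 5 rose with the trend over exon length taken out. CCL2, a monocyte attractant, had 13.6, 12.3 and 13.1 CPM at the medium dose and 22.75, 21.8 and 23.3 CPM in vehicle (-0.80 ± 0.07, adjusted p 1.8e-13). PTX3, a soluble pattern receptor, had 57.7, 59.2 and 56.5 CPM at the medium dose and 36.8, 38.5 and 38.75 CPM in vehicle (0.60 ± 0.05, adjusted p 9.3e-13). IL6 and CXCL8 were not called, with differences of 0.21 and 0.05, but against the low dose of Pinellia CXCL8 was called lower (-0.438, adjusted p 0.011). CXCL3 was called higher but stood at 0.357 to 0.580 CPM at the medium dose and 0.0466 to 0.194 CPM in vehicle, close to the floor of 3 counts, and was not called against the low dose of Pinellia. RELB, an NF-κB subunit, rose by 0.26 ± 0.06 over vehicle, but the difference over the low dose of Pinellia was -0.025. That replacement gave 1 NF-κB gene that rose and 8 that fell. PTGS2, the inducible cyclooxygenase, fell to 70.2, 68.6 and 78.4 CPM at the medium dose, against 101, 96.3 and 103 CPM in vehicle (-0.46 ± 0.05), and lay 0.26 above the low dose (adjusted p 0.0018).

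Several cholesterol genes stood slightly below vehicle. Of 27 tested, 6 fell and 1 rose (25.9% called, beside 8.45% of all genes), with a median of 0.00. INSIG1, the sterol-responsive brake on SREBP, had 105, 107 and 103 CPM at the medium dose and 131, 134 and 139 CPM in vehicle (-0.36 ± 0.04, adjusted p 6.2e-11). HMGCS1, an early enzyme of the pathway, fell by 0.15. At the high dose 23 of the 27 were above the medium dose, beside 28.7% of all genes, with INSIG1 at 356, 372.5 and 374 CPM. The 6 falls became 3 without replicate 1 of the vehicle and 3 against the low dose of Pinellia, and HMGCS1 lost its call in both. SLC2A1, the glucose carrier GLUT1, changed by -0.35 ± 0.04. Its libraries had 128, 133 and 129.7 CPM at the medium dose against 169, 161.5 and 167.5 CPM in vehicle. Of 46 hypoxia and glycolysis genes 6 rose and 7 fell (28.3% called), or 3 and 4 without replicate 1 of the vehicle.

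Of 48 genes of G2 and mitosis 5 fell and 0 rose (10.4% called, beside 8.45% of all genes), with a median of -0.04. MKI67, the proliferation marker Ki-67, had 239, 243 and 236 CPM at the medium dose against 273, 271 and 276 CPM in vehicle (-0.19 ± 0.05, adjusted p 0.0043). Of 49 DNA replication genes 5 fell and 1 rose (12.2% called), or 6 and 3 with the trend over exon length taken out; TYMS and RRM2, which make DNA precursors, fell by 0.18 and 0.15. Against the low dose of Pinellia, or without replicate 1 of the vehicle, 1 of the 48 mitosis genes fell. DNA replication genes that fell then numbered 1 and 2, and MKI67 and RRM2 were not called against Pinellia. High against medium dose, all 48 were lower, beside 28.6% of all genes. Cytosolic ribosomal protein genes had a median of 0.03. Of 13 mitochondrially encoded mRNAs 1 rose, with a median of 0.19 and 0 to 8 rises over the alternative settings, 8 with no filter on low counts and 0 with the trend over exon length taken out.

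**Figure D5:**
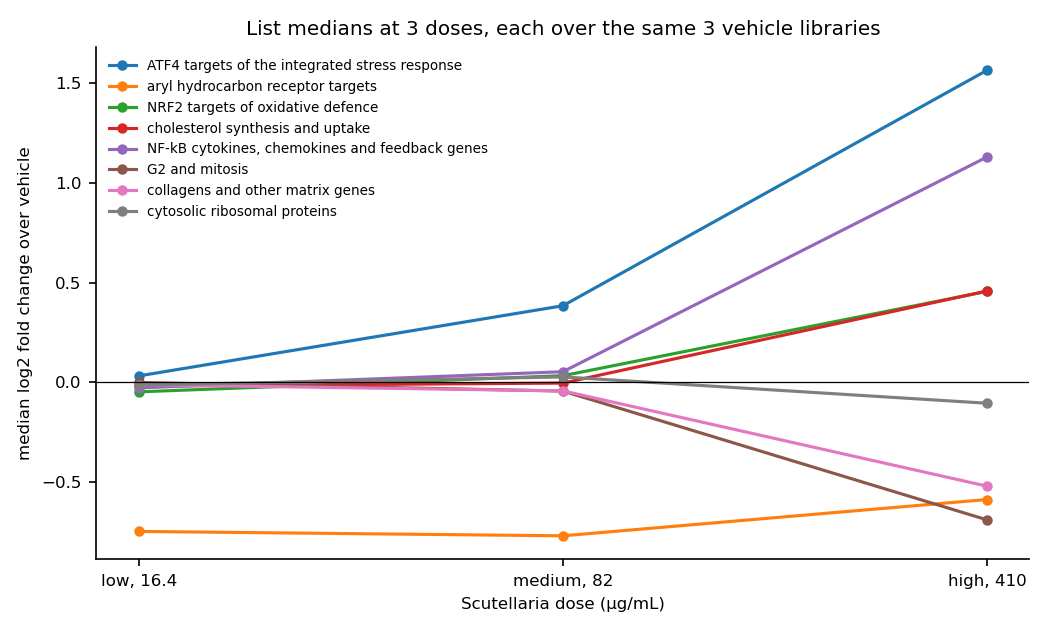
Median log2 fold change over vehicle of gene lists at the 3 doses, which are 5-fold apart and evenly spaced on the axis; all points share the 3 vehicle libraries. ATF4 targets have 0.03, 0.38 and 1.56 at low, medium and high dose, and AhR targets -0.75, -0.77 and -0.59. The last AhR median hides a split, with 5 of 13 targets called above vehicle at the high dose and 6 below.

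The medium dose lay between low and high for some genes and not for others. Of the 654 genes that rose, 119 were also higher than at the low dose, 321 were higher still at the high dose and 167 were lower there than at the medium dose. Of the 830 that fell, 99 were below the low dose, 4 above it, 406 were lower still at the high dose and 260 were higher there. Of the 1484 called genes, 239 were called in the opposite direction at the high dose against vehicle, where 10336 genes (58.8%; 30.3% higher and 28.5% lower) were called. Of these 239, 163 fell and 76 rose at the medium dose. IGFBP1, a secreted binding protein of insulin-like growth factors, followed another course. It had 21.6, 23.7 and 23.3 CPM at the medium dose and 22.4, 23.9 and 21.96 CPM in vehicle, which overlap (0.00 ± 0.06, adjusted p 0.98). Low-dose libraries were lower, at 14.4, 14.2 and 17.04 CPM, so the medium dose was 0.58 above the low dose (adjusted p 5e-09), and the high dose was a further 1.58 higher.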

How the data were processed

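RNA libraries of 20 groups (60 in all, 3 a group) had been sequenced as directional paired reads. Per the submitters' processing notes, reads were checked with FastQC 0.11.9, trimmed with Trim Galore 0.6.5, aligned with STAR 2.7.3a to GRCh38 and counted with RSEM 1.3.3. RSEM's annotation release and strandedness, not given in the sources used here, may shift counts of overlapping genes. The authors deposited expected counts per gene (60675 genes), which were rounded to whole numbers. Genes passing filterByExpr over the 20 groups (17569) were tested in 1 fit over all 60 libraries with TMM scaling in edgeR 4.0.16 (R 4.3.3), by the quasi-likelihood test with 40 residual degrees of freedom; p-values were adjusted by Benjamini-Hochberg over all genes, and a gene was called under 0.05. Totals ran from 20.2 to 32.8 M counts, and 3 counts correspond to 0.118 to 0.144 CPM in the 6 libraries; this floor covers counting error only. CPM values of single genes use TMM-scaled totals, those of markers plain totals. Gene positions come from GENCODE 29 and promoters from RefSeq GRCh38.p14.

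The groups were taken from the labels. Members and gene lists were chosen with earlier results of these data known, so list counts are descriptions and carry no test. Genes named are the 12 largest rises and 12 largest falls of called, non-overlapping genes, from each list with 3 or more calls the 4 of smallest p at most, and a fixed set of single genes; any further gene named, such as PHGDH, CTH, CEBPB, CEBPG, ATF4, SLC7A5, STC2, SLC38A2, CYP2S1, NFE2L2, ARNT and GCLC, was chosen after its values were seen. Some named genes are not reported here. Alternatives were RLE scaling, no filter, a replicate block, a fit of the 2 groups alone (with and without the block), each library left out, the trend over exon length taken out, the low dose of Pinellia in place of vehicle, and DESeq2 1.42.0. On simulated counts for this comparison (17496 genes), the test recovered 31 of 50 genes whose level was changed by 1.2 times. It recovered 40 of 50 for 1.5 times, 46 for 2 times and all 50 for 4 times, and 11 of its 178 calls were false. Changed genes were drawn only from those above 1 CPM in vehicle, and all others had equal means in both groups. Spread was that of the fit, without any solvent or code-set difference, so these rates need not hold for the real comparison.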

Additional observations from a re-analysis of the deposited data

Results flagged for a closer look

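For 21 named genes the medium and the high dose were called in opposite directions against the same 3 vehicle libraries, and the high dose also differed from the medium dose by edgeR's quasi-likelihood test. The values are log2 differences of the high minus the medium dose. The medium-dose call of 13 of the 21 was lost under at least 1 alternative setting, that of KLHL24 (adjusted p 0.046) under 8 of 14. The other 8, INSIG1, MMP1, PTGS2, SLC2A1, TIPARP, TMEM132B, TUBB2A and TUBB3, kept it under every alternative.

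Of the genes that fell at the medium dose, the cholesterol genes INSIG1 and HMGCS1 were higher at the high dose, by 1.80 and 0.53. TIPARP, the AhR feedback gene, was higher by 1.00, PTGS2 by 0.89, MMP1 by 0.66 and SLC2A1 by 0.45. The chaperone and degradation genes DNAJC3, HSPH1 and SEL1L were higher by 0.63, 0.21 and 0.20. KLHL24, CDKN1B and GNL3 were higher by 1.305, 0.48 and 0.30. KRTAP1-5 and TMEM132B, both under 4 CPM at the medium dose and in vehicle, were higher by 3.13 and 1.57.

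Of the genes that rose at the medium dose, ID1 was lower at the high dose, with a log2 difference of -2.82. The tubulin genes TUBB3 and TUBB2A differed by -1.70 and -0.58, and HSPB1 by -0.75. PDLIM7, POLD1 and CYC1 differed by -0.58, -0.49 and -0.33.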

How the results depend on the processing

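Medium dose against vehicle, the 1484 called genes became 854 to 1243 when 1 library at a time was left out and 831 against the low dose of Pinellia, 610 of them shared with the main calls. Medium against low dose, the 289 became 130 in a fit of those 2 groups alone, 144 with the replicate block added to that fit, and 169 to 218 with 1 library left out. High against medium dose, the 10068 stayed between 9397 and 10100. Of 124 named genes called in the main fit, 86 kept their call under every alternative. Against the low dose of Pinellia 27 lost it, without replicate 1 of the vehicle 22, and without replicate 3 of the medium dose 17. With RLE scaling 0 lost it. With DESeq2 CXCL3 had no adjusted p and so no call, and 0 of the others lost theirs. The share of higher calls was 44.1% and became 54.2% with the exon length trend taken out. It was 53.5% with no filter on low counts and 38.2% with DESeq2. In a fit of medium dose and vehicle alone, the quasi-likelihood test gave CHAC1 an adjusted p of 4.2e-09, in place of 2.5e-22. For CYP1B1 it was 4.9e-12, in place of 3.8e-30. The cause of these shifts was not tested.

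Over all genes tested, same-numbered libraries of medium dose and vehicle had residual correlations of 0.0204, -0.0046 and 0.0149. Such values cannot exclude a shared culture or day that moved only some genes. The labels do not say what the numbers mark. With a replicate block over all 60 libraries 1588, 331 and 10100 genes were called in the 3 comparisons.

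Changes of sign were seen in 12 named genes, with log2 fold changes as follows. Against the low dose of Pinellia, RELB was at -0.025, TFRC at 0.012, HSPA5 at 0.078, CXCL8 at -0.438, IL6 at -0.239, FOS at -0.221, CCN1 at -0.104 and ACTA2 at -0.013; of these RELB is called in the main fit. NQO1 was at -0.001 with RLE scaling, -0.002 with DESeq2 and with the length trend taken out, and -0.018 to 0.017 with 1 library left out. IGFBP1 was at -0.001 with RLE scaling and with DESeq2, -0.023 with the length trend taken out and -0.024 to 0.043 with 1 library left out. VEGFA was at 0.031 with the length trend taken out and -0.04 to 0.007 with 1 library left out. With 1 library left out CCND1 lay between -0.057 and 0.015, CXCL8 between -0.036 and 0.114 and FOS between -0.055 and 0.189. At about 20 to 25 M counts a library, differences of genes under 1 CPM, such as CYP1A1, have wide errors.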
